A study of Homo sapiens with 4 samples.

Results

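Untreated A375 melanoma cells were divided by the summed level of 7 genes, SPANXB1, SPANXC, KRT81, KRT7, KRT80, C19orf33 and ANKRD1, and every other gene was then compared between the resulting sets. The score of a cell was the number of UMIs (barcoded transcript molecules, each counted once) of these 7 genes per 10000 UMIs of the cell. Cells with a score of at least 10 are called cells with the KRT81-SPANXB1 state, and cells with a score under 3 are called cells without it. Of 6693 untreated (S) cells, 2819 had the state, 3406 did not, and 468 lay between the thresholds. The whole series held 28640 filtered cells in 4 libraries, 1 for each condition.

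A375 is an established human line with the BRAF V600E mutation, which keeps the MAPK pathway active. All cultures were A375 cells in the same medium, and S received no drug. RV cells had been kept on vemurafenib, a BRAF inhibitor, RVC cells on vemurafenib + cobimetinib, and RVT cells on vemurafenib + trametinib, the latter both being MEK1/2 inhibitors. The drugs were given for 10 to 14 days below their IC50 and taken away 24 h before capture of 10000 loaded cells on the Chromium system. A single library stands for each condition, so that the spread between cultures is unknown. All intervals below are at 95% and cover counting error only. No test between the sets was made, because cells of 1 library are not replicates.

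Keratins are the intermediate filament proteins of epithelial cells, and hair keratins such as KRT81 are normally made in the hair follicle. SPANX proteins are cancer-testis antigens, made in developing sperm and in some tumours. ANKRD1 is a common target of YAP and TAZ, coactivators that enter the nucleus when cells are spread or stretched and bind DNA through the TEAD factors. Melanoma cells descend from the neural crest, and lines such as A375 can hold cells with more or fewer features of that lineage, among them the factor SOX10 and the receptor ERBB3.

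The score separated the S cells into a low and a high group with few cells in between. No UMI of the 7 genes was seen in 2091 cells, which are 61.4% of the cells without the state. In cells with the state the median score was 35.9, with quartiles of 23.5 and 49.0, and the highest was 157. Since the thresholds chose the sets, these values describe the choice. Close to the lower threshold, 89 cells had a score from 2.5 to 3 (median 2.72) and 57 from 3 to 3.5 (median 3.19). Close to the upper threshold, 37 cells had a score from 9.5 to 10 (median 9.69), and the lowest score from 10 on was 10.0036. Cells with the state held 42.1% of the S library (40.9% to 43.3%). After thinning each S cell to 1500 UMIs it was 40.3% (39.1% to 41.5%).

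**Figure D1:**
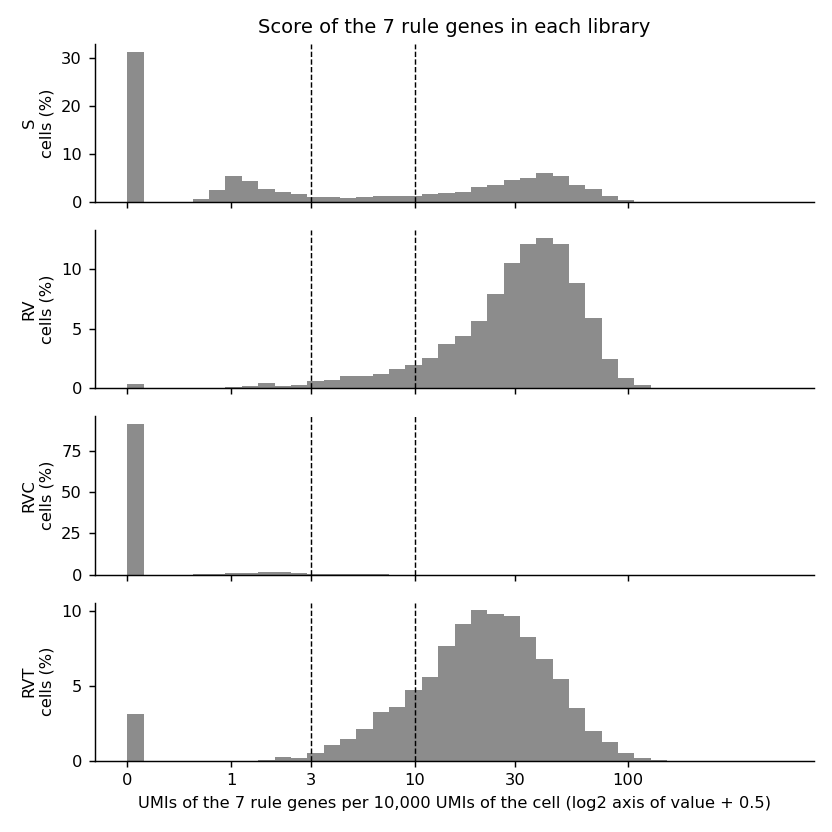
Histograms of the score in each library, with the share of the library's cells on the vertical axis and the score on the horizontal axis (log2 of the score plus 0.5); dashed lines mark 3 and 10. S cells fall into a group at 0 to 3 and a group above 10, nearly all RVC cells lie under 3, and most RV and RVT cells lie above 10.

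Depth and quality of the sets were alike but not equal. The median cell with the state had 9530 UMIs and 2179 genes, and the median cell without it had 8648.5 UMIs and 2100.5 genes. Mitochondrial genes took a median of 2.99% of the UMIs in cells with and 3.28% in cells without the state. Cells between the thresholds were shallower, with a median of 7316 UMIs. The 358 cells scored highest by the doublet caller are called likely doublets. Their number was set by an assumed rate of 0.8% per 1000 cells, and the caller's own threshold marked only 5. Likely doublets made up 6.88% of the cells with the state (194), 3.38% of those without it (115) and 10.47% of those between the thresholds (49). The S library shared 38 cell barcodes with RV, 75 with RVC and 93 with RVT, and 87 cells with and 103 cells without the state carried such a barcode. With all shared barcodes left out, the ratios of 126 named genes stayed within their counting intervals. The 13 keratinocyte and epithelial markers summed to 25.9 CPM (UMIs per 1000000 UMIs of the set) in cells with and 16.3 in cells without the state, and CDH1, TP63, GRHL2 and OVOL1 had no UMI. The largest difference among them was that of KRT14, with 9.94 and 2.09 CPM. The 9 fibroblast markers summed to 3.20 and 2.41 CPM, and the 7 blood cell markers to 1.03 and 0.91 CPM, with PTPRC, CD3E and HBB at 0. The part of these cells in the results was not tested. The pigment genes MLANA, TYR and PMEL, markers of differentiated melanocytes, had at most 0.241 CPM in either set. No cell type in the culture is known to lack the 7 genes, so the level that free RNA gives was not measured.

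KRT81 gave 63.3% of all UMIs of the 7 genes. It lies on chromosome 12 (52285913 to 52291534, GRCh38), beside KRT7 (52232520 to 52252186) and KRT80 (52168996 to 52192000). As chosen, it had 2440 CPM in cells with the state (2422 to 2458) and 29.3 in cells without it (27.4 to 31.3). SPANXB1 (chromosome X, 141002591 to 141003706) had 426 and 3.49 CPM, and SPANXC (141241463 to 141242496) had 73.8 and 0.555. KRT7, a keratin of simple epithelia, had 365 and 13.2 CPM, and KRT80 had 67.1 and 1.86. C19orf33 (chromosome 19, 38304161 to 38305009) had 259 and 5.38 CPM, and ANKRD1 (chromosome 10, 90912096 to 90921276) had 215 and 1.34.

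When each gene was left out and the sets were chosen by the other 6, with thresholds scaled to the UMIs that were left, all 7 remained higher in cells with the state. The 7 genes had been put together with their joint variation in these cells known, so that this describes the choice as well. KRT81 was then 28.9 times higher (27.7 to 30.1), with 84.4 CPM in cells without the state. The other ratios ran from 23.2 for KRT7 (21.2 to 25.5) to 133 for ANKRD1 (100 to 181). The sets chosen without KRT81 shared 2452 cells with the state and 3025 cells without it with the full score. These were 96.5% and 93.5% of the sets chosen by the 6 genes, and 87.0% and 88.8% of those chosen by all 7. The genes did not all appear in each cell. In cells thinned to 5000 UMIs, which left out 122 shallower cells with and 167 without the state, 95.8% of 2697 cells with the state had UMIs of at least 2 of the genes, 61.7% of at least 4 and 2.22% of all 7, whereas 1.98% of 3239 cells without the state had at least 2. The low share without the state follows from the threshold, which leaves such cells few UMIs of these genes. KRT81 was seen in 99.7% of the thinned cells with the state, SPANXB1 in 69.3% and ANKRD1 in 31.7%.

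Several of these genes have close relatives, between which reads can be split or lost. SPANXB1 and SPANXC transcripts of GENCODE 29 were 91.2% identical over 387 aligned bases, with a longest shared run of 75 bases. KRT81 and KRT86 were 88.4% identical over 1907, with a longest shared run of 605 bases. KRT86 itself had 130 UMIs in cells with and 10 in cells without the state. SPANXD had 7 UMIs and SPANXA1 had 1, all in cells with the state. The share of each family member is therefore uncertain.

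Outside the 7 genes, 6120 genes had at least 10 CPM in the higher set. Of these, 212 (3.46%) were at least 2-fold higher and 166 (2.71%) at least 2-fold lower in cells with the state. At 1.5-fold the numbers were 426 higher (6.96%) and 428 lower (6.99%). With TMM scaling, which aligns the bulk of genes, 503 were higher and 322 lower at 1.5-fold. The median gene had a log2 ratio of -0.08. Below, a gene is called higher or lower where its CPM differed by at least 1.5-fold.

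**Figure D2:**
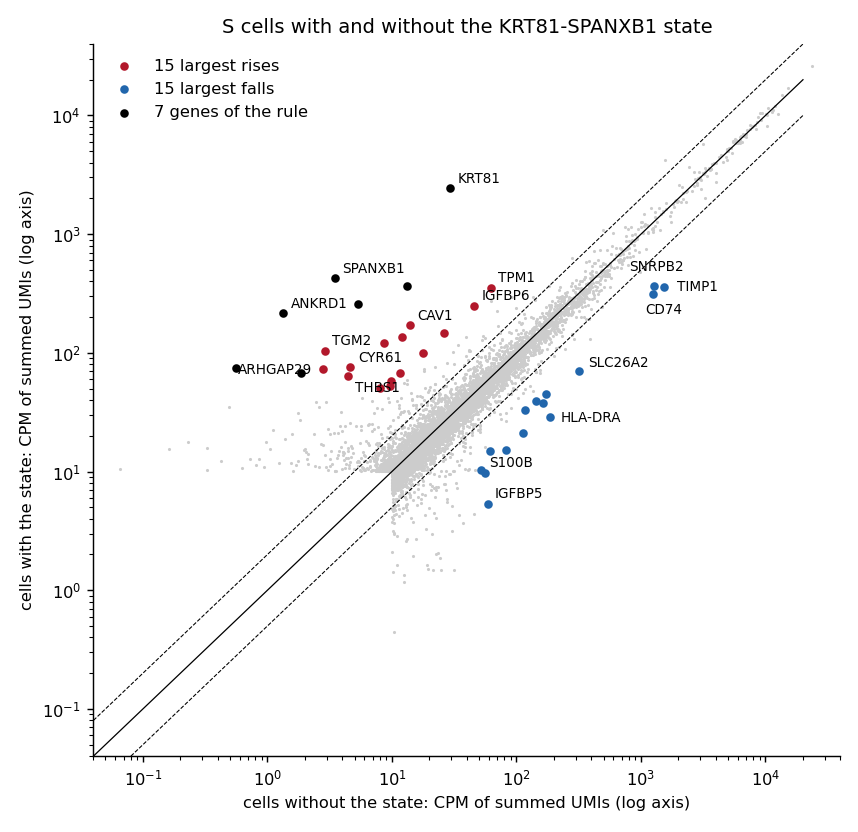
CPM of each gene summed over S cells without the state (horizontal) and with the state (vertical), on log axes, with values under 0.05 drawn at 0.05. The solid line marks equal levels and the dashed lines 2-fold differences; the 15 named rises lie at ratios from 5.49 to 36.4, the 15 named falls at ratios of 0.0916 to 0.288, and the 7 genes of the rule, which had to differ, are in black.

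The largest rise among genes with at least 50 CPM was that of TGM2, the tissue transglutaminase, which crosslinks proteins of the matrix and the cell cortex. It had 105 CPM in cells with the state (101 to 108) and 2.87 in cells without it (2.30 to 3.54), a ratio of 36.4 (29.5 to 45.5). ARHGAP29, a GTPase-activating protein for RHOA, had 73.0 and 2.77 CPM and a ratio of 26.3 (21.2 to 33.1). Against the cells of low 2q share described below, its log2 ratio was 3.85 in place of 4.72. CYR61 (also CCN1), a secreted matrix protein and YAP-TEAD target, had 75.3 and 4.57 CPM, 16.5 times higher (13.9 to 19.7). These 3 genes were close to absent in cells without the state, where a UMI was found in 1.20%, 1.39% and 2.13% of the cells thinned to 5000 UMIs. With the state, the shares were 34.7%, 28.3% and 23.6%.

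THBS1, an adhesive glycoprotein, had 63.7 CPM with and 4.44 without the state, 14.4 times higher (12.1 to 17.2). CAV1, the coat protein of caveolae, had 170 and 14.0 CPM, 12.2 times higher (11.02 to 13.5). TPM1, an actin-binding tropomyosin, had 354 CPM (348 to 361) and 62.4 (59.7 to 65.3). EPHA2, a receptor tyrosine kinase, had 52.9 and 9.59 CPM, and the secreted protease PRSS23 had 57.7 and 9.85. Each of these genes was more than 5 times as abundant in cells with the state.

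Among the other large rises, NUPR1, a stress-induced nuclear protein, stood at 120 and 8.68 CPM, and SCG5, a chaperone of prohormone convertase, at 137 and 12.0. DKK1, an inhibitor of WNT signalling, had 50.1 and 8.02 CPM. IGFBP6, a binding protein of insulin-like growth factors, had 250 CPM (245 to 256) and 45.6 (43.2 to 48.1). SERINC2 had 68.2 and 11.5 CPM, and TPST1, which sulfates tyrosines of secreted proteins, had 99.98 and 17.8. HBE1, the embryonic epsilon globin, had 148 and 26.1 CPM. Its gene model overlaps other globin genes, of which HBG2 had 239 UMIs with and 60 without the state, so that its value is uncertain. These genes were thus found in both sets, at levels 5.49 to 13.9 times higher with the state.

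The largest fall among genes with at least 50 CPM was that of IGFBP5, another binding protein of insulin-like growth factors. It had 5.36 CPM in cells with the state (4.55 to 6.27) and 58.5 in cells without it (55.8 to 61.3), 10.9 times lower (9.26 to 12.9). Its gene lies at the end of 2q, and against the cells of low 2q share described below its log2 ratio was -2.63 in place of -3.45, a smaller fall than that of HLA-DRA (-3.01). IGFBP3 went the same way, with 9.63 and 55.8 CPM. The growth factor binding proteins therefore differed in direction, IGFBP6 being higher and IGFBP3 and IGFBP5 lower. TIMP1, the inhibitor of matrix metalloproteinases, was the most abundant of the falls, with 357 CPM (350 to 363) and 1531 (1518 to 1545). TFPI2, a protease inhibitor of the matrix, had 21.1 and 112 CPM.

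The other large falls held membrane proteins and genes of varied function. SLC26A2, a sulfate transporter, had 70.4 and 320 CPM, and TSPAN13, a tetraspanin, had 15.1 and 81.9. RAMP1, a partner of the calcitonin-like receptor, had 37.7 CPM (35.5 to 40.01) and 165 (160 to 169). FCGR2A, a receptor for immunoglobulin G, had 15.02 and 61.5 CPM, and the dynein light chain DYNLT3 had 33.2 and 117. SNRPB2, a protein of the U2 spliceosome particle, had 368 CPM (361 to 375) and 1275 (1263 to 1288). UBE2F, an enzyme of NEDD8 conjugation, had 44.8 and 174 CPM. All the genes in this paragraph were found in both sets, at levels 3.47 to 5.41 times lower with the state.

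Of the YAP-TEAD target list's 26 genes, 15 could be compared, and 11 of them were higher and 2 lower in cells with the state, against 6.96% and 6.99% of all genes. Of the 11, 8 reached 10 CPM only in cells with the state and so could not have been lower. Likewise, 1 of the 2 reached it only in cells without the state and could not have been higher. Among the 6 members with at least 10 CPM in both sets, 3 were higher (AXL, PTPN14 and TEAD4) and 1 lower. The shares of all genes rest on 10 CPM in the higher set only. Counts of members with at least 10 CPM in both sets, here and for the lists below, therefore have no matching share beside them. The median log2 ratio of the 15 was 1.37, which rests in part on the 8 members that reached 10 CPM only with the state. CTGF (also CCN2) had 15.3 CPM (13.9 to 16.8) and 1.04 (0.714 to 1.47). AJUBA, an adaptor that restrains the LATS kinases, had 20.5 and 2.38 CPM, and AMOTL2, which binds YAP, had 21.2 and 3.43. AXL, a receptor kinase, had 140 CPM (135 to 144) and 53.9 (51.4 to 56.6). The members that went the other way were IGFBP3 and AMOTL1, the latter with 15.8 and 25.9 CPM. ANKRD1 is also such a target, but it was part of the rule and is not counted here.

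Promoter sequences were read for the named genes from the RefSeq promoter table (GRCh38.p14), which held 3 of the 7 rule genes, 11 of the 15 named rises and 12 of the 15 named falls. The 250 bases before each start were searched for the TEAD core GGAATG and the AP-1 motif TGANTCA on both strands. At least 1 TEAD core was found in 5 of the 11 rises (DKK1, EPHA2, IGFBP6, THBS1 and TPST1) and in 2 of the 12 falls (DYNLT3 and IGFBP5), against 11.9% of all 35116 promoters. The AP-1 motif was found in none of the rises and in 2 of the falls (SNRPB2 and TFPI2), against 6.57% of all promoters. Neither motif was found before SPANXB1 or SPANXC. The promoters of ANKRD1, THBS1, EPHA2 and DKK1 are shown as examples that hold a TEAD core, with the matches in capitals. Those of IGFBP6 and TPST1 hold one too and are not shown. ANKRD1 is a gene of the rule, so that its higher level was fixed by the choice of the sets. In ANKRD1 the TEAD cores lie 123 to 128 and 215 to 220 bases before the start and the AP-1 motif 189 to 195 bases before it. In THBS1 the core lies 41 to 46, in EPHA2 68 to 73 (as its reverse complement CATTCC) and in DKK1 45 to 50 bases before the start. A match of letters is a description and not a measured binding site.
ANKRD1, chr10:90921088-90921337, minus strand: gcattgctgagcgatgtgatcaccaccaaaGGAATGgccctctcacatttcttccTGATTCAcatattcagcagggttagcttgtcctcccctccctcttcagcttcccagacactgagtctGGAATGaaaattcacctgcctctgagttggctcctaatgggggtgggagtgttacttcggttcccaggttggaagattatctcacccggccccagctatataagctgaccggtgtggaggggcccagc
THBS1, chr15:39580829-39581078, plus strand: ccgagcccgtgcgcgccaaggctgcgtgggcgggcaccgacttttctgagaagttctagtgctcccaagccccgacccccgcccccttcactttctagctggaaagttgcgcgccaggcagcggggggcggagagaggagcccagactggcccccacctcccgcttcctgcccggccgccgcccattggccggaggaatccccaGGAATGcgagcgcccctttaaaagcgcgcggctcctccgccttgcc
EPHA2, chr1:16156070-16156319, minus strand: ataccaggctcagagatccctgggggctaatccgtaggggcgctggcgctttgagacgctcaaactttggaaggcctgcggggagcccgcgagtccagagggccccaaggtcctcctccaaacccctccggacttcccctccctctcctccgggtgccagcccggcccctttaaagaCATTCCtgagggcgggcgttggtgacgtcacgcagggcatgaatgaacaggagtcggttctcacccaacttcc
DKK1, chr10:52314031-52314280, plus strand: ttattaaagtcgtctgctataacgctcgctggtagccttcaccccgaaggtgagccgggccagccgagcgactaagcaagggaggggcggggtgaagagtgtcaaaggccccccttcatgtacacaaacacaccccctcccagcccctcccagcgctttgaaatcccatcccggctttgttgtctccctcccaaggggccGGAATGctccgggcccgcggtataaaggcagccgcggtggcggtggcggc

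Of the 24 genes of the neural crest and melanocyte list, 9 could be compared, and 6 were lower and 1 higher (all genes, 6.99% and 6.96%), with a median log2 ratio of -1.40. Among the 5 with at least 10 CPM in both sets, 4 were lower and none higher. SOX10, the lineage factor, had 56.4 CPM in cells with the state (53.7 to 59.2) and 111 in cells without it (108 to 115). ERBB3, a receptor for neuregulins, had 34.4 and 90.5 CPM, and S100B, a calcium-binding protein of the lineage, had 10.2 and 51.5. TFAP2B had 0.447 CPM (0.238 to 0.764) and 10.4 (9.30 to 11.6). SOX10 was thus kept at a lower level, while TFAP2B was close to absent with the state. The gene that went the other way was MITF, the melanocyte master factor, with 15.6 CPM (14.2 to 17.1) and 4.73 (3.99 to 5.57). Among members under 10 CPM in both sets, SOX9 had 7.22 and 0.783 CPM and NGFR had 2.2 and 0.0652.

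All 8 measured MHC class II genes, which present peptides to helper T cells, were lower in cells with the state (all genes, 6.99%), with a median log2 ratio of -2.34, among them all 5 with at least 10 CPM in both sets. HLA-DRA had 28.9 CPM (27.0 to 30.9) and 186 (181 to 191), a level 6.43 times lower (5.98 to 6.93). CD74, the invariant chain, had 314 CPM (307 to 320) and 1242 (1230 to 1255), and it had UMIs in 53.7% of thinned cells with and 90.2% of thinned cells without the state. HLA-DPA1 had 39.3 and 143 CPM, HLA-DRB1 2.03 and 22.6, and HLA-DQB1 1.48 and 21.3. The smallest fall was that of HLA-DPB1, with 27.5 and 48.9 CPM. Of the MHC class I genes given here, HLA-B was lower, with 67.9 and 153 CPM, and so was HLA-C, with 47.3 and 91.7, whereas B2M, the light chain, had 899 and 842. HLA genes are close relatives, so that their single values are uncertain.

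Genes of the actin cytoskeleton were higher in 8 of 17 cases and lower in none, against 6.96% and 6.99% of all genes. Their median log2 ratio was 0.56, and of the 16 with at least 10 CPM in both sets 7 were higher. Beside TPM1, CNN3 (calponin 3) had 55.5 CPM (52.8 to 58.3) and 12.5 (11.3 to 13.8), and VCL (vinculin), which ties actin to adhesions, had 32.6 and 13.4. ACTB and ACTG1, the main actins, had 1265 and 1002 and 1666 and 1405 CPM and were under 1.5-fold. Of the integrin subunits, ITGB4 and ITGA3 were higher and ITGB8 and ITGA1 lower, among 9 measured, set beside the same shares of all genes. Of these, ITGB4 reached 10 CPM only in cells with the state. ITGA1 was under 1.5-fold in 4 alternatives, with log2 ratios of -0.55 (TMM), -0.49 (equal weight per cell), -0.45 (cells thinned to 5000 UMIs) and -0.28 (G1 cells), in place of -0.62. ITGB4, which binds laminin in hemidesmosomes, had 22.2 and 5.61 CPM.

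Cytokines and chemokines were higher in 7 and lower in 2 of 13 cases, against 6.96% and 6.99% of all genes, with a median log2 ratio of 0.60. Among the 9 with at least 10 CPM in both sets, 4 were higher and 1 lower. The median was under 1.5-fold with equal weight per cell (0.57) and against the cells of low 2q share described below (0.53). IL1B had 38.3 CPM (36.1 to 40.6) and 2.45 (1.92 to 3.07). Against the same cells of low 2q share, its log2 ratio was 2.85 in place of 3.97. CXCL1, a neutrophil chemokine, had 240 CPM (234 to 246) and 45.3 (43.0 to 47.8). CXCL8 had 136 and 38.9 CPM. IL1A had 4.43 and 21.7 CPM, so that both interleukin-1 genes differed by large factors in opposite directions. LCN2, an iron carrier, had 68.3 CPM (65.4 to 71.4) and 143 (139 to 147).

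Of 11 AP-1 and immediate-early genes, 5 were higher and 2 lower, against 6.96% and 6.99% of all genes, with a median log2 ratio of 0.43. Among the 7 with at least 10 CPM in both sets, 2 were higher and 1 lower. JUN had 20.8 and 3.16 CPM, FOSL2 16.6 and 2.81, and FOSL1 240 (234 to 245) and 98.4 (94.9 to 102), whereas FOS had 6.22 and 11.5 and EGR1 14.0 and 30.1. Of 15 MAPK output genes, 3 were higher and 2 lower, set beside the same shares of all genes, with a median log2 ratio of -0.08. FOSL1 and EGR1 are counted in this list as well. Among the 14 with at least 10 CPM in both sets, 2 were higher and 2 lower. EPHA2, the other higher one, reached 10 CPM only with the state and so could not have been lower. DUSP6, which ERK induces as its own phosphatase, had 53.9 and 58.4 CPM, and SPRY2 had 16.8 and 27.2.

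Of the other keratins, KRT18, a keratin of simple epithelia, had 1076 CPM (1064 to 1088) and 497 (490 to 505). Of the 4 measured members of the keratin list, which also holds vimentin, KRT18 alone passed 1.5-fold (all genes, 6.96% higher and 6.99% lower). Among keratins under 10 CPM in both sets, KRT14 had 9.94 and 2.09 CPM and KRT15 had 7.63 and 2.48. KRT8, the partner of KRT18, had 146 and 117 CPM, and VIM (vimentin) 2296 and 2571. Of 10 other cancer-testis antigens, 1 was higher and none lower (all genes, 6.96% and 6.99%). The higher one was GAGE1, with 31.1 CPM (29.1 to 33.2) and 1.76 (1.32 to 2.30). GAGE1 reached 10 CPM only with the state, and none of the 9 members with at least 10 CPM in both sets passed 1.5-fold. GAGE genes are near-identical copies, so that the value of GAGE1 is uncertain. Against cells of low 2q share its log2 ratio was 2.66 in place of 4.14. MAGEA4 had 262 and 239 CPM and PRAME 30.3 and 39.5.

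Among the other lists, both measured metallothioneins were higher, MT2A with 4227 CPM (4204 to 4251) and 1565 (1551 to 1580) and MT1X with 121 and 73.6. In 1 alternative MT1X was under 1.5-fold. FTH1, the ferritin heavy chain, had 5778 and 3156 CPM, while NQO1, an NRF2 target, had 132 CPM (128 to 136) and 392 (385 to 399). Over all genes 6.96% were higher and 6.99% lower, and the counts of this paragraph are set beside these shares. Of the 8 measured NRF2 genes 1 was higher and 2 lower, and of 10 heat shock genes none was higher and 3 were lower. Of these 3, HSPD1 and HSPE1 lie at the end of 2q and were under 1.5-fold, at -0.54 and -0.44, against the cells without the state that are described below by a low share of 2q UMIs. Of 11 S100 proteins, 2 were higher, S100A2 with 226 and 69.1 CPM and S100A3 with 37.3 and 17.1. The 4 lower ones were S100A1 with 1.62 and 19.1, S100A4 with 112 and 219, S100B and S100P. Among the 9 with at least 10 CPM in both sets, 2 were higher and 2 lower. Of the matrix list, 2 of 14 genes were higher and 3 lower, the latter being TIMP1, LAMA4 and COL9A3. Among its 11 members with at least 10 CPM in both sets, 1 was higher and 2 lower. Of the undifferentiated and mesenchymal list, 3 of 13 were higher (LOXL2, AXL and TGFBI) and 2 lower (TNC and FN1). Of these, LOXL2 and FN1 reached 10 CPM only in the set where they were higher. FN1 was at a log2 ratio of 0.46 (-0.01 to 0.96) against the same cells of low 2q share. In the p53 list GDF15 alone was higher, with 45.6 and 14.1 CPM, and CDKN1A had 115 and 83.5. Set beside the same shares, for glycolysis and hypoxia 2 of 17 genes were higher and 1 lower. For the integrated stress response 1 of 18 was higher and 1 lower, and for cholesterol synthesis 2 of 10 were higher. The lower hypoxia gene, the higher stress response gene and 1 of the 2 cholesterol genes reached 10 CPM only in their higher set. For the interferon response 1 of 6 was higher. Of 3 ID and BMP genes, 13 mitochondrially encoded genes and 82 ribosomal protein genes none passed 1.5-fold. LINC01419, a noncoding RNA on chromosome 8, had 139 CPM (135 to 143) in cells with and 234 (228 to 239) in cells without the state, and was present in both.

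**Figure D3:**
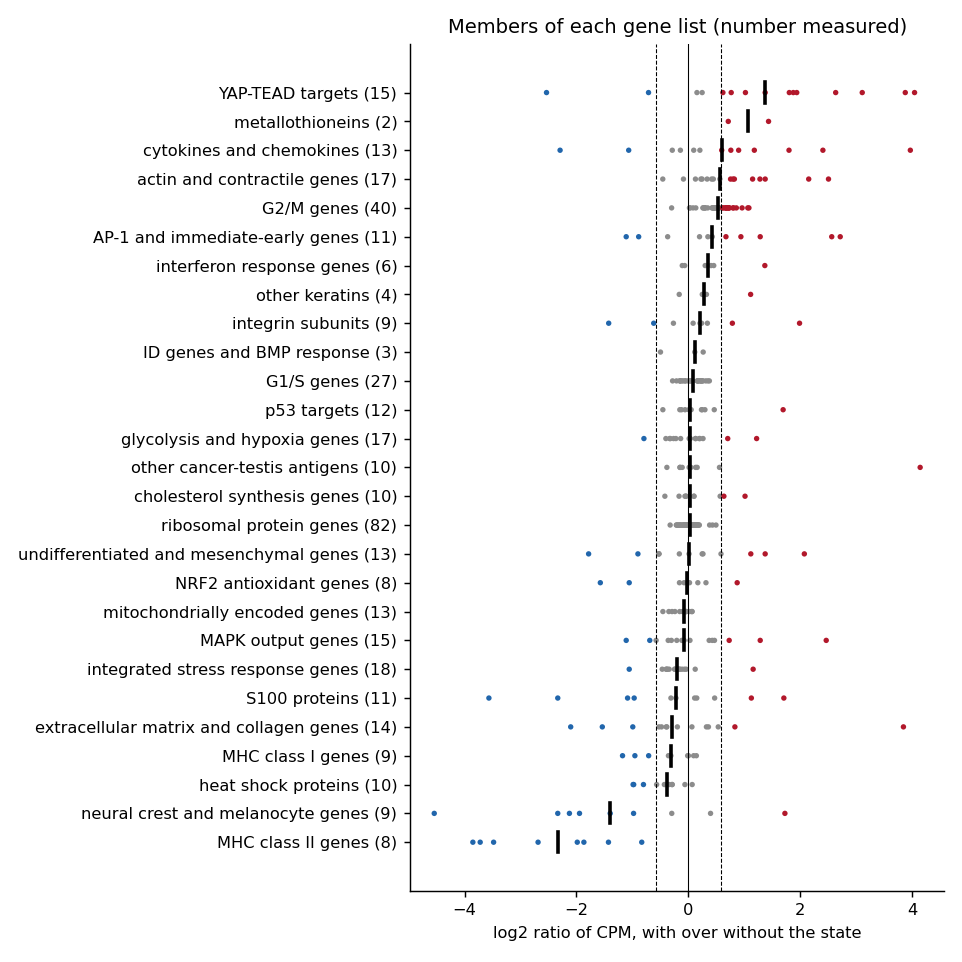
Log2 ratio of CPM in S cells with over without the state for each measured member of each gene list (points) and the list's median (black bar), with the number of members measured in brackets and dashed lines at 1.5-fold. MHC class II genes lie wholly on the lower side with a median of -2.34, and YAP-TEAD targets have the highest median, 1.37. Of the 15 YAP-TEAD members, 8 higher ones reached 10 CPM only in cells with the state. Of the 8 MHC class II members, 3 reached it only in cells without the state.

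Part of the G2/M genes, which serve mitosis, were higher with the state. Of 40 measured, 17 were higher, 23 did not pass 1.5-fold and none was lower (all genes, 6.96% higher and 6.99% lower). Of the 30 with at least 10 CPM in both sets, 12 were higher. The median log2 ratio was 0.53, whereas none of 27 G1/S genes passed 1.5-fold. CENPA, the centromere histone, had 22.4 CPM (20.8 to 24.2) and 10.6 (9.48 to 11.8), TOP2A 128 and 77.1, and CDC20 94.8 and 48.7. From cells thinned to 5000 UMIs, phase scores called 29.7% of 2697 cells with the state G2/M (28.0% to 31.5%) and 17.1% of 3239 cells without it (15.9% to 18.5%). The shares called G1 were 58.1% and 71.1%. The phase scores were made from the same G1/S and G2/M lists, so that these shares restate the levels above in part. When only cells called G1 were compared, the median of the G2/M list was 0.16, a change that this choice of cells fixes in part. The numbers of genes at least 2-fold higher and lower were then 216 and 150.

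The levels were followed in 7 bins of the score, which hold 2961 cells under 1.5, 445 at 1.5 to 3, 175 at 3 to 5, 293 at 5 to 10, 496 at 10 to 20, 1129 at 20 to 40 and 1194 above 40. TGM2 had 2.53 CPM in the lowest bin, 22.9 at 5 to 10 and 134 above 40, and CYR61 had 4.28, 11.8 and 109. For SCG5 the values in these bins were 12.1, 33.9 and 161. ARHGAP29, THBS1, NUPR1, CAV1, DKK1, SERINC2, TPM1 and TPST1 were also more than 2-fold higher above 40 than at 5 to 10. For 3 of the 15 rises the levels at 5 to 10 and above 40 were under 1.5-fold apart. IGFBP6 had 43.3, 201 and 268 CPM in the same bins, HBE1 24.6, 126 and 144, and PRSS23 8.41, 54.7 and 68.5.

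The falls likewise differed in where they began. TIMP1 had 1534 CPM in the lowest bin, 682 at 5 to 10 and 305 above 40, and SNRPB2 had 1300, 547 and 332. TFPI2 had 113, 29.8 and 18.3 CPM. By contrast S100B had 51.0, 51.5 and 3.57, CD74 1240, 1104 and 161, and HLA-DRA 185, 132 and 11.5. SOX10 was higher in the cells between the thresholds than at either end, with 111, 139 and 36.1 CPM, and ERBB3 had 90.4, 107 and 19.6. The sum of the integrated stress response list was lowest there, with 1720, 1081 and 1660 CPM, and that of the S100 proteins highest, with 11698, 17490 and 12497. The cells between the thresholds were also the shallowest and held the largest share of likely doublets, and the part of this in their levels was not tested.

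**Figure D4:**
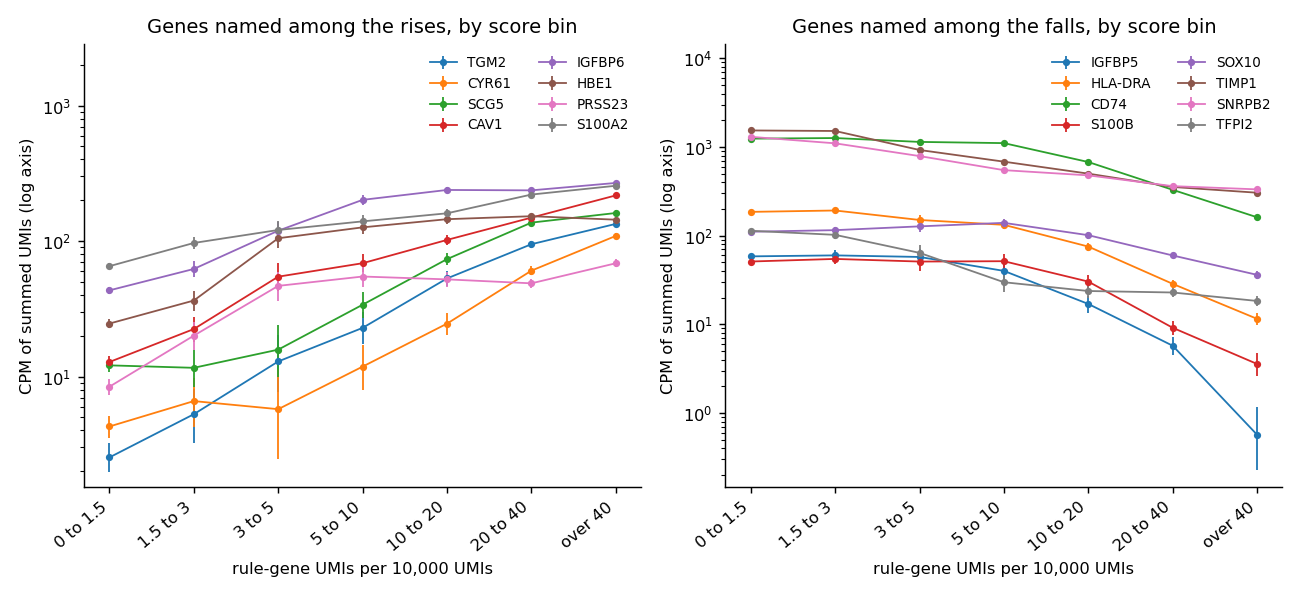
CPM of summed UMIs (log axis) in 7 bins of the score, for 8 genes that were higher (left) and 8 that were lower (right) with the state; bars are exact Poisson intervals. TGM2 and CYR61 continue to climb above a score of 40, whereas IGFBP6 and PRSS23 have reached 201 and 54.7 CPM at 5 to 10, against 268 and 68.5 above 40, and TIMP1 and SNRPB2 drop before CD74, S100B and SOX10 do.

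Along the chromosomes, the medians farthest from 0 lay on chromosome 18 and at the end of the long arm of chromosome 2. In 111 windows of 50 neighbouring measured genes, the lowest medians were -0.56 and -0.52, for the last windows of chromosome 2, and the next was -0.25, on chromosome 13. The highest was 0.34, for the window of chromosome 18, and on that whole chromosome 68 of 79 measured genes (86.1%) had a log2 ratio above 0. On the other chromosomes this share ran from 22.7% (chromosome 13) to 47.7% (chromosome 8). In finer windows of 20 genes, the lower medians ran from position 174072447 to the last measured gene at 241768816 (GRCh38). Of 121 measured genes there, 113 had a log2 ratio below 0, where the median of all measured genes (-0.08) lies as well. At least 1.5-fold lower were 50 (41.3%), as were 6.99% of all genes. IGFBP5, RAMP1, UBE2F, HSPD1, HSPE1 and FN1 lie in this region. These places were noticed in the data and carry no test.

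Per cell, the share of UMIs from the end of 2q was uneven among the cells without the state. Its histogram had a low group and a high group with a dip at 205 per 10000 UMIs. Below the dip lay 95.7% of cells with the state, 80.6% of cells between the thresholds and 25.8% of cells without it. The last are 879 cells with a median of 172, close to the 170 of cells with the state. The other 2527 had a median of 248. The ribosomal protein gene RPL37A had 8222 of the region's 17169 CPM in cells with the state. In the low and high groups without the state, RPL37A had 7650 of 17239 and 11228 of 24912 CPM. Chromosome 18 gave a median of 47.2 UMIs per 10000 in cells with the state, and 37.7 and 36.7 in the low and high groups without it. Whether the number of copies of these regions differs between the cells was not measured.

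**Figure D5:**
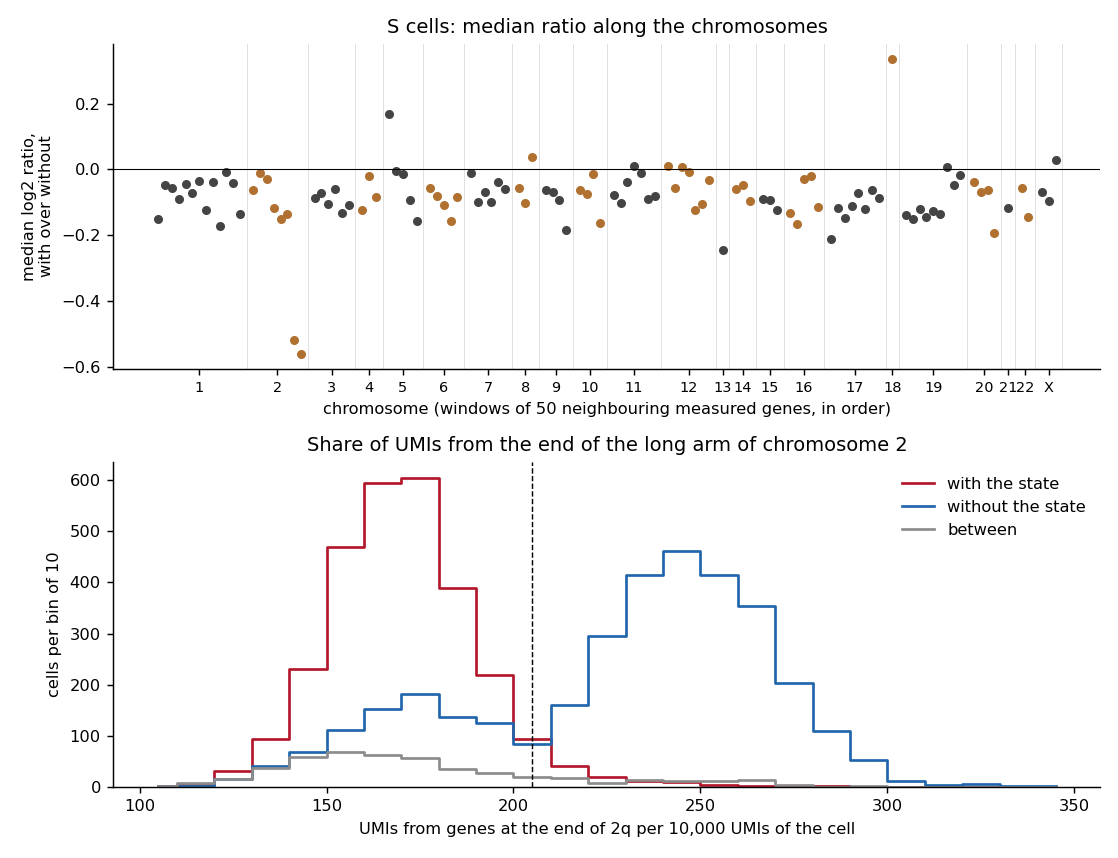
Top, median log2 ratio of S cells with over without the state in windows of 50 neighbouring measured genes, in chromosome order; the last windows of chromosome 2 lie at -0.52 and -0.56 and that of chromosome 18 at 0.34. Bottom, number of cells by their share of UMIs from the end of 2q in bins of 10, with a dashed line at the dip of 205; cells without the state form a low and a high group.

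Set against the 879 low cells alone, chosen after seeing the data, cells with the state had a median log2 ratio of -0.14 at the end of 2q in place of -0.52, a change that the choice of these cells by their 2q share fixes. On chromosome 18 it was 0.26 in place of 0.31. The numbers of genes at least 2-fold higher and lower were 217 and 156. Log2 ratios were 4.89 for TGM2 (4.35 to 5.48), 3.93 for CYR61 (3.48 to 4.43), -3.01 for HLA-DRA (-3.13 to -2.89), -2.29 for CD74 and -1.92 for TIMP1. HBE1 went from 2.5 to 1.498 (1.35 to 1.65), since it had 52.2 CPM in low and 16.9 in high cells without the state. GAGE1 went from 4.14 to 2.66, ARHGAP29 from 4.72 to 3.85 (3.40 to 4.34), IL1B from 3.97 to 2.85 (2.41 to 3.33) and IGFBP3 from -2.53 to -1.82 (-2.06 to -1.57). On 2q itself, IGFBP5 went from -3.45 to -2.63 and UBE2F from -1.96 to -1.37, while RAMP1 was at -2.05. HSPD1 and HSPE1, the mitochondrial chaperonins and the lowest of the heat shock list, went from -0.99 to -0.54 and from -0.98 to -0.44, under 1.5-fold. FN1 turned from -0.90 to 0.46, with an interval that holds 0 (-0.01 to 0.96).

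Few measured genes lie within 500 kb of the genes of the rule. Near SPANXB1 and SPANXC, LDOC1 was higher, with 43.9 and 21.2 CPM. Near the keratins on chromosome 12, NR4A1, an immediate-early nuclear receptor, was lower, with 10.6 and 38.9 CPM. Near ANKRD1, PCGF5 had 21.8 and 14.4 CPM. None of the 5 measured neighbours of C19orf33 passed 1.5-fold.

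The same thresholds placed the other libraries differently. In RV, 91.1% of 4327 cells had the state (90.2% to 92.0%) and 76 cells did not. In RVC, 1 of 8307 cells had it and 8173 did not. In RVT, 81.7% of 9313 cells had it (80.9% to 82.5%) and 345 did not. At a fixed 1500 UMIs a cell, 86.4% of RV cells, 0.0506% of RVC cells and 77.7% of RVT cells had the state, with all RV cells, 7904 RVC cells and 8461 RVT cells deep enough. The genes behind the score differed between libraries. In RV, SPANXB1 had 1300 CPM, C19orf33 868, KRT7 602, KRT81 595 and ANKRD1 172. In RVT, SPANXB1 and SPANXC gave 73.4% and 18.6% of the score's UMIs, with 1849 and 470 CPM, while KRT81 had 92.1, KRT7 26.2 and ANKRD1 3.09. In RVC no gene of the rule had more than 14.3 CPM, the level of KRT80. A score of 10 in RVT cells thus stood for SPANX transcripts, and in S cells mainly for KRT81. In RV the score was more mixed, with 34.3% of its UMIs from SPANXB1, 22.9% from C19orf33, 15.9% from KRT7 and 15.7% from KRT81.

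In RV the split could be repeated in cells that were not used for the levels above, although the 76 RV cells without the state held only 646071 UMIs. Their median was 7561.5 UMIs against 11994 in RV cells with the state, and at 1500 UMIs a cell the RV set without the state held 261 cells. The part of depth in the RV values was not tested. Among 2018 genes with at least 50 CPM in S, 6.74% were at least 1.5-fold higher and 6.49% at least 1.5-fold lower in RV cells with the state. Of the 15 named rises, 13 were at least 1.5-fold higher in RV, and of the 15 named falls 14 were lower. TGM2 had 162 CPM with and 40.2 without the state, a log2 ratio of 2.01 (1.46 to 2.63), against 5.19 (4.88 to 5.51) in S. CYR61 was at 2.11 (1.33 to 3.02), CAV1 at 1.99 (1.58 to 2.42) and SCG5 at 3.28 (2.31 to 4.50). The rises that were under 1.5-fold in RV were TPM1, with 217 and 206 CPM, and HBE1, with 93.5 and 82.0.

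HLA-DRA, CD74 and S100B were lower in RV cells with the state as well. HLA-DRA had 15.7 CPM with and 356 without it, a log2 ratio of -4.50 (-4.72 to -4.29), CD74 191 and 1836, and S100B 3.30 and 99.1. MITF, the exception of its list in S, was higher in RV too, with 20.9 and 7.74 CPM (log2 ratio 1.43, 0.21 to 3.06). Among the lists, the RV median was -3.83 for MHC class II and -2.94 for the neural crest and melanocyte list. It was 0.77 for YAP-TEAD targets and 0.47 for G2/M genes. For the actin list the RV median was 0.08 (0.56 in S) and for AP-1 and immediate-early genes 0.11 (0.43 in S). The sign differed for the interferon response, -0.19 in RV and 0.35 in S, and for heat shock genes, 0.08 in RV and -0.39 in S. The neural crest median includes TFAP2B, which had no UMI in RV cells without the state and was taken there at 3 UMIs. In RV cells with the state TFAP2B had 0.0193 CPM, and MITF had 5 UMIs in those without it. For TFPI2, the exception among the falls, RV cells had 25.03 and 20.1 CPM. CXCL1 and IL1B had no such difference past 1.5-fold in RV, with 64.5 and 74.3 and with 39.5 and 44.9 CPM, and the RV median of the cytokine list was -0.20. The end of 2q had a median log2 ratio of 0.04 in RV and chromosome 18 one of 0.43.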

How the data were processed

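Droplet libraries of A375 cells in 4 conditions were analysed, 1 library each. Per the labels, the authors used the Chromium v2 kit, bcl2fastq 2.20.0.422, Cell Ranger (version not given in the sources used here) and GRCh38. The deposited values are whole-number UMI counts per gene and barcode, without normalization, counted near the 3' end and therefore not scaled by length. Their gene lists differ, with 33694 genes in S and RV and 33538 in RVC and RVT. The numbers of S and RV cells that the study states are below the numbers of barcodes listed here, for RV by more than the number it states, and its filters are not given in the sources used here. Barcodes with at least 500 genes and at most 20% mitochondrial UMIs were kept, which left 6693 of 6695 in S with 63582691 UMIs. The other libraries held 28829751 to 55283706 UMIs after filtering, and library medians ran from 2951 UMIs per cell (RVT) to 11648 (RV), S having 8911 and RVC 4099.

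UMIs were summed per gene over the cells of a set and given as CPM with exact Poisson intervals. Ratios have exact conditional intervals and shares of cells Clopper-Pearson intervals, all at 95%, for counting error only. A set without a UMI was taken at 3 UMIs. A gene was compared from 10 CPM in the higher set, and called from 1.5-fold. Named were the 15 largest rises and 15 largest falls from 50 CPM, without the 7 rule genes and mitochondrial genes, the 2 highest and 2 lowest genes of each of 30 lists, and LINC01419. Other list members were named after their values were seen. The rule, members and lists were chosen with earlier results of these data known. Genes were placed with GENCODE 29. Scrublet's own threshold marked only 5 barcodes (0.0747%), so that it did not work, and doublets were kept in the main values and removed by rate (0.8% per 1000 cells, 358 barcodes) as an alternative. Phases came from scanpy 1.11.5 with the lists of Seurat 5.3.0, and TMM from edgeR 4.0.16 in R 4.3.3. Python 3.11.15, numpy 2.4.6, pandas 2.3.3, scipy 1.17.1 and matplotlib 3.10.9 were used. Alternatives were stricter cell filters, other thresholds, scores with or without KRT81, thinned cells, equal weight per cell, TMM, library sizes without ribosomal protein and mitochondrial genes, G1 cells only, other CPM minimums and, chosen after seeing the data, shared barcodes left out and cells of low 2q share only. Functions were tested on simulated data. No p-value was made from cells. Some results are not reported here.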

Additional observations from a re-analysis of the deposited data

Results flagged for a closer look

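For 2 of the named genes that differed by at least 1.5-fold in S, the ratio of cells with over cells without the state had opposite signs in S and RV, with counting intervals that exclude equal levels in each. The difference between the libraries was not tested, since each condition has 1 library, and the RV set without the state holds 76 cells. HSPE1 had a log2 ratio of -0.98 (-1.02 to -0.93) in S and of 0.38 (0.15 to 0.62) in RV. It lies at the end of 2q, and against S cells of low 2q share alone the S value was -0.44. LCN2 had a log2 ratio of -1.07 (-1.14 to -0.99) in S and of 1.48 (0.75 to 2.32) in RV, where 15 UMIs were counted without the state.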

How the results depend on the processing

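With library sizes that leave out ribosomal protein and mitochondrial genes, more genes reach 10 CPM, and 338 were at least 2-fold higher, 260 at least 2-fold lower, 667 at least 1.5-fold higher and 645 at least 1.5-fold lower. From 3 CPM on, these numbers were 448, 365, 822 and 902, and from 50 CPM on 53, 41, 116 and 118. The share of S cells with the state was 34.7% with thresholds of 20 and 1.5, and 38.0% with a score without KRT81. All other alternatives tried for these counts left them within 1.5 times. The shares with stricter cell filters, doublets removed, cells thinned to 5000 UMIs, a score from KRT81 alone and shared barcodes left out lay within the interval of the main value, whereas 40.3% at 1500 UMIs lay below it. The 15 rises and 15 falls named first stayed above 2-fold in 360 of 360 values, the smallest log2 size being 1.37. Of the 1008 values of 84 named genes past 1.5-fold, 9 fell under it (ITGA1 in 4 settings, and AMOTL1, SPRY2, HSPD1, HSPE1 and MT1X in 1 each), and FN1 alone changed sign, to 0.46 (-0.01 to 0.96) against cells of low 2q share, a setting chosen after seeing the data, as was the removal of shared barcodes. The cause was not tested. Over 12 settings the median of the YAP-TEAD list ran from 1.11 to 1.53, that of MHC class II from -2.78 to -2.16 and that of the neural crest list from -1.75 to -0.89. The 76 RV cells without the state limit every RV value. No paired analysis was possible because each condition has 1 library.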
